A study of Saccharomyces cerevisiae with 40 samples.

Results

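The 10 genes described here act at the entry into yeast meiosis and in the first steps of meiotic recombination: IME1, IME2, NDT80, REC102, REC104, REC114, SPO11, SPO13, MEI4 and HOP1. They were chosen by name, as genes transcribed at a low level in growing cells, with earlier results of these data known. Each is represented by the probe sets whose only gene symbol in the platform annotation is its own, which gave 11 probe sets, since MEI4 has a pair, named in the platform annotation with the endings _n_at and _at. They are 10 of the 5656 genes that have a probe set of their own on the array.

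RNA of Saccharomyces cerevisiae was measured on 40 Affymetrix arrays in 10 groups of 4. All cells came from the strain HFY1400, in which HIS3 disrupts NMD2 (nmd2::HIS3), so both strains lack the chromosomal copy of the gene. GAL-NMD2 cells carried NMD2 on a plasmid behind the galactose-driven GAL1 promoter, and nmd2D cells carried the empty vector. Each was sampled at 0, 10, 20, 40 and 60 min. The series design has galactose added to cells in raffinose medium lacking uracil, while each sample's growth protocol names galactose alone. The GAL1 signal went from 108 ± 48.5 (SD, n = 4) at 0 min to 3662 ± 1106 at 60 min in GAL-NMD2, and from 85.9 ± 14.2 to 3155 ± 658 in nmd2D. The labels call the 4 replicates biological and the design calls them independent. Restored NMD2 in this system therefore means expression from a plasmid promoter, and neither mating type nor ploidy is given.

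In growing yeast cells the early meiotic genes are held down by the DNA-binding protein Ume6 with the Sin3 and Rpd3 corepressors. Starvation of diploid cells induces the transcription factor Ime1, which turns the early genes on, among them the kinase Ime2, and these lead to Ndt80, the activator of the middle genes. Spo11 cuts DNA to start meiotic recombination with the help of Rec102, Rec104, Rec114 and Mei4, on chromosome axes that carry Hop1, and Spo13 is needed for the first meiotic division to keep sister chromatids together. Nmd2, also called Upf2, is a core factor of nonsense-mediated mRNA decay, which destroys mRNAs whose translation ends early. The REC102, REC114 and MEI4 genes contain introns.

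The NMD2 probe set gave 895 ± 34.9 (SD, n = 4) signal units at 0 min and 889 ± 132 at 60 min in nmd2D, so it also reads RNA or background in the disrupted strain, and the sources do not say which stretch of the gene it covers. In GAL-NMD2 it went from 1038 ± 177 to 1654 ± 212, and at 60 min all 4 GAL-NMD2 arrays were above all 4 nmd2D arrays (log2 difference 0.89, limma adjusted p = 2.59e-05). Signals are MAS5 units on a linear scale, with every array scaled by the authors to the same trimmed mean. Array medians lay between 61.3 and 86. At 60 min the medians averaged 65.8 ± 3.73 in GAL-NMD2 and 81.7 ± 3.15 in nmd2D, which bears on every strain difference below. Of the 7 markers specific to a cells, MFA2 lay between 936.4 and 2315.6 and STE2 between 223.9 and 654.6 over the 40 arrays, MFA1, STE6, BAR1 and AGA2 were never below 93.3, and ASG7 gave 5.7 to 29.8. Of the alpha-cell markers, MF(ALPHA)2 stayed at 8.4 to 30.1 and STE3 at 12.0 to 46.2. MF(ALPHA)1 gave 14.9 to 103.1 and SAG1 341.8 to 1131.2. None of the 7 a-specific, 4 alpha-specific and 6 haploid-specific markers differed between the strains at 60 min at an adjusted p under 0.05. Of all 7420 probe sets tested, 11.9% were called lower in GAL-NMD2 at that time and 0.431% higher. With the replicate number as a block AGA2 (adjusted p = 0.00488), STE3 (0.00218) and SAG1 (0.00864) were lower in GAL-NMD2, beside 20.1% of all probe sets. Their part in the results below was not tested. At 20 min replicate 2 of GAL-NMD2 stood apart in the check of replicates.

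IME2, REC104 and REC102 were lower in GAL-NMD2 than in nmd2D at 40 and 60 min, while IME1, NDT80 and SPO11 gave no called difference at any time. At 60 min the GAL-NMD2 mean was 37.4% of the nmd2D mean for IME2, 31.0% for REC104 and 36.7% for REC102. These percentages are ratios of linear signals. REC114, SPO13, MEI4 and HOP1 lay below the filter on low signal, with most or all of their arrays under 16 units, so 6 of the 10 genes were tested. Tests used limma on log2(signal + 16) over 7420 probe sets, with Benjamini-Hochberg adjustment and a threshold of 0.05. The added 16 units shrink the log2 differences of dim genes.

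**Figure D1:**
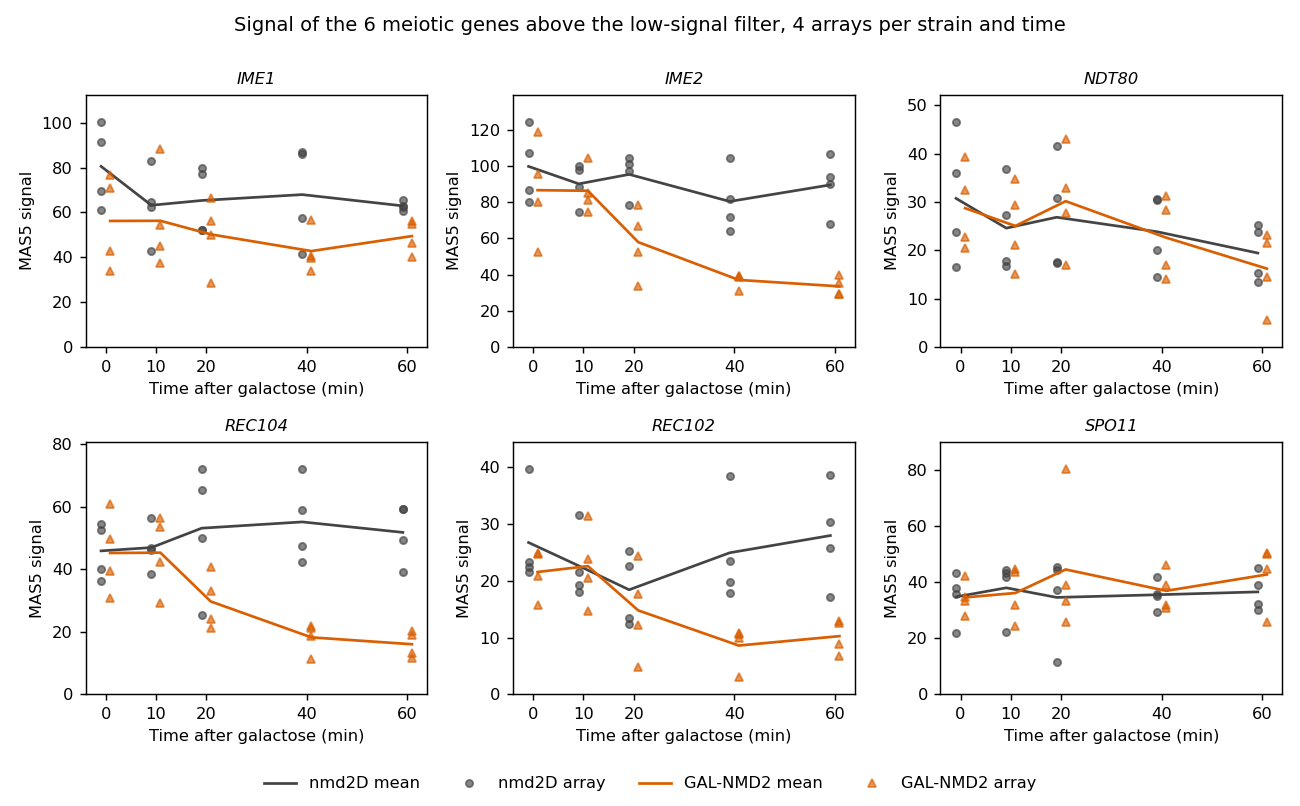
MAS5 signal (linear units) against time after galactose (min) for the 6 genes above the low-signal filter, with 1 point per array, 4 arrays per strain and time, and lines through the group means. IME2, REC104 and REC102 separate by strain at 40 and 60 min, and IME1, NDT80 and SPO11 do not in the test.

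IME1, the master activator of meiotic entry, had lower signals in the GAL-NMD2 arrays from the start, without passing the test at any time. At 0 min the 4 GAL-NMD2 arrays, in the order of replicates 1 to 4, read 43.0, 71.0, 34.1 and 76.7, and the nmd2D arrays read 60.9, 91.4, 69.4 and 100.5. In each of the 4 same-numbered pairs the GAL-NMD2 array was the lower, although the groups overlap. The log2 difference of -0.45 had an unadjusted p of 0.0511 and an adjusted p of 1 in the limma fit.

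The later times had the same direction. At 40 min the IME1 means were 42.8 ± 9.74 in GAL-NMD2 and 68.0 ± 22.3 in nmd2D (SD, n = 4), with a log2 difference of -0.49 (adjusted p = 0.212, and 0.0526 with the replicate number as a block). At 60 min GAL-NMD2 read 40.3, 46.5, 56.2 and 54.8, and nmd2D read 62.5, 60.6, 65.6 and 63.0. The groups do not overlap at that time, yet the log2 difference was only -0.28 with a 95% interval from -0.73 to 0.17 (adjusted p = 0.581). The change of IME1 from 0 to 60 min differed between strains by 0.17 (log2, interval -0.47 to 0.80), so the strain difference at 60 min was no larger than the one at the start. Without GAL-NMD2 replicate 3 that difference in change was -0.04.

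IME2, the meiosis-specific protein kinase that Ime1 switches on, started at overlapping signals in the 2 strains and ended apart. At 0 min GAL-NMD2 read 80.2, 95.3, 118.5 and 52.5 and nmd2D read 86.9, 107.3, 124.5 and 80.3. At 40 min the GAL-NMD2 arrays had come to 38.6, 39.4, 39.3 and 30.9, against 63.9, 81.5, 104.5 and 71.7 in nmd2D. At 60 min they read 29.3, 40.0, 35.4 and 29.3 against 67.9, 106.8, 93.7 and 89.8. The 2 strains overlap at 0 min and do not overlap at 40 or 60 min, when even the highest GAL-NMD2 array was well under the lowest nmd2D array.

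The IME2 strain difference (log2 scale, GAL-NMD2 minus nmd2D) was -0.20 at 0 min and -0.05 at 10 min, neither called. At 20 min it was -0.62 (adjusted p = 0.117, and 0.00196 with the replicate number as a block). The GAL-NMD2 arrays then ran from 33.8 to 78.7 and the nmd2D arrays from 78.5 to 104.5. The strain difference reached -0.85 ± 0.18 (SE) at 40 min (adjusted p = 0.00137) and -1.08 ± 0.18 at 60 min (adjusted p = 3.65e-05). In same-numbered pairs the GAL-NMD2 array at 60 min held between 32.6% and 43.2% of the nmd2D signal. Within GAL-NMD2 the IME2 signal fell from a mean of 86.6 ± 27.7 at 0 min to 33.5 ± 5.20 at 60 min (log2 change -1.02, adjusted p = 0.000117). Within nmd2D the means were 99.8 ± 20.1 and 89.6 ± 16.2, a log2 change of -0.13 with an interval from -0.50 to 0.24 (adjusted p = 1).

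NDT80, which encodes the activator of the middle meiotic genes, did not differ detectably between the strains. Its GAL-NMD2 mean was 28.7 ± 8.71 at 0 min and 16.2 ± 8.01 at 60 min, and its nmd2D mean was 30.7 ± 13.3 and 19.4 ± 5.99 (SD, n = 4). The strain difference at 60 min was -0.16 (log2, interval -0.63 to 0.31, adjusted p = 0.838), and it was 0.10 after centring of the arrays. Both strains had lower means at the end than at the start. The change was -0.49 in GAL-NMD2 (adjusted p = 0.208, and 0.0102 with the replicate number as a block) and -0.37 in nmd2D (adjusted p = 1, and 0.247 with the block). These changes were not shown to differ, with an interaction of -0.12 (interval -0.78 to 0.54, adjusted p = 1).

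The spread of NDT80 followed the replicate number. Averaged over the 5 times, its GAL-NMD2 signal was 18.2, 34.3, 27.8 and 17.8 in replicates 1 to 4, and its nmd2D signal was 17.4, 29.7, 34.0 and 19.3. Replicates 2 and 3 were thus the high ones in both strains. The same held for IME2 and REC102, so this is not particular to NDT80.

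Of the 3 tested genes of DNA break formation, REC104 had the largest strain difference at 60 min. Rec104 works with Rec102 as a partner of Spo11. At 0 min GAL-NMD2 read 30.9, 49.8, 39.4 and 60.7 and nmd2D read 36.3, 52.7, 40.1 and 54.4. At 60 min GAL-NMD2 read 20.4, 19.1, 11.5 and 13.2 and nmd2D read 39.2, 59.3, 49.4 and 59.2. The strains overlap fully at the start, and at the end every GAL-NMD2 array was below every nmd2D array.

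The REC104 strain difference (log2) was -0.03 at 0 min, -0.05 at 10 min and -0.56 at 20 min. At 20 min the adjusted p was 0.26, and 0.0222 with the replicate number as a block. The difference was -1.05 ± 0.20 (SE) at 40 min (adjusted p = 0.000311) and -1.08 ± 0.20 at 60 min (adjusted p = 0.000123). The 40-min arrays ran from 11.2 to 21.8 in GAL-NMD2 and from 42.4 to 72.0 in nmd2D. REC104 fell within GAL-NMD2 by 0.92 on the log2 scale between 0 and 60 min (adjusted p = 0.00105). In nmd2D the means were 45.9 ± 9.02 and 51.8 ± 9.58, with all 4 replicates somewhat higher at 60 min and a log2 change of 0.13 (interval -0.27 to 0.53, adjusted p = 1).

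REC102, the other partner of that pair, showed the strain difference at a signal close to the filter. At 0 min GAL-NMD2 read 15.7, 24.8, 20.9 and 24.7 and nmd2D read 21.6, 22.4, 39.6 and 23.2. At 60 min GAL-NMD2 read 6.7, 12.6, 12.9 and 8.8 and nmd2D read 17.2, 25.7, 38.5 and 30.3. The groups overlap at 0 min and are separate at 60 min, and all 4 GAL-NMD2 arrays at 60 min were below the 16 units added before the log. The log2 difference was -0.72 ± 0.19 (SE) at 40 min (adjusted p = 0.00954) and -0.73 ± 0.19 at 60 min (adjusted p = 0.00622). It depended on the scaling: after centring of each array on its median it was -0.47 at 60 min (adjusted p = 0.0982), and after quantile normalization -0.56 (adjusted p = 0.103).

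The REC102 change within GAL-NMD2 from 0 to 60 min was -0.52 (log2, adjusted p = 0.0722, and 0.000596 with the replicate number as a block). Within nmd2D the means were 26.7 ± 8.62 and 27.9 ± 8.90, a log2 change of 0.04 with an interval from -0.34 to 0.42.

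SPO11, the topoisomerase-related enzyme that makes the breaks, did not follow its partners. At 60 min GAL-NMD2 read 26.0, 50.3, 50.0 and 44.9 and nmd2D read 32.4, 30.1, 38.9 and 45.0. The groups overlap, with the lowest array in GAL-NMD2. The log2 difference of 0.15 at 60 min had an interval from -0.31 to 0.60 (adjusted p = 0.853), and over the 5 times the difference lay between -0.05 and 0.25. The value of 0.25 at 20 min includes the GAL-NMD2 array of replicate 2, which read 80.4 against 25.9 to 38.9 in the others of its group. A fall of the size of IME2 or REC104 at 60 min lies outside the SPO11 interval.

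**Figure D2:**
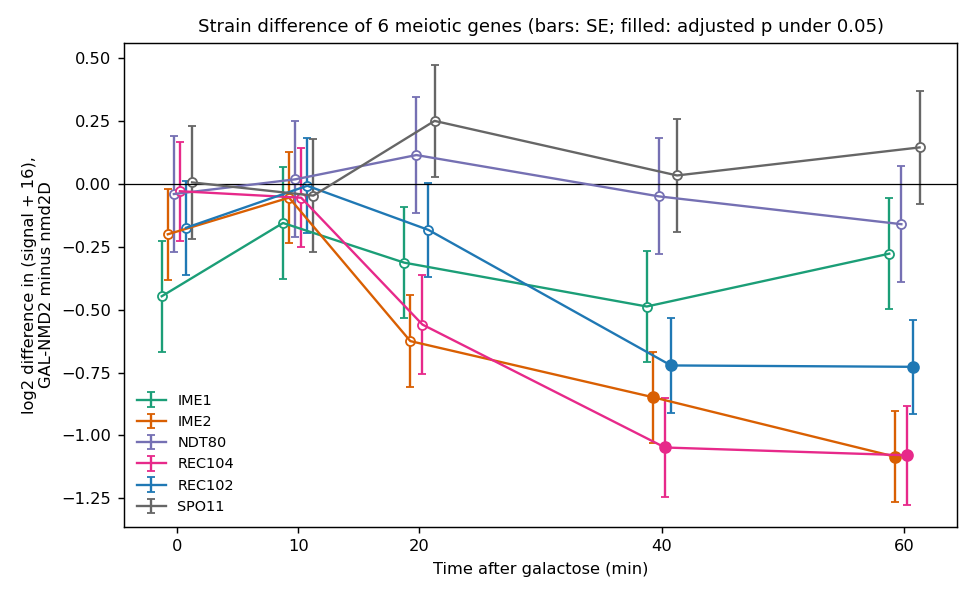
Log2 difference in (signal + 16), GAL-NMD2 minus nmd2D, against time (min) for the 6 tested genes, with bars of 1 SE and filled points where the limma adjusted p was under 0.05. IME2, REC104 and REC102 are filled at 40 and 60 min, between -0.72 and -1.08, and no point is filled at 0, 10 or 20 min.

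Counted over the tested genes, 3 of 6 were lower in GAL-NMD2 at 40 min and the same 3 at 60 min, and none was higher. Of all 7420 probe sets, 7.96% were called lower at 40 min and 11.9% at 60 min, and those called higher made up 0.593% and 0.431%. With the replicate number as a block the same 3 genes were lower at both times. Beside them were 1176 of the 7420 probe sets at 40 min and 1489 (20.1%) at 60 min. The median log2 difference of the 6 genes at 60 min was -0.50, that of all probe sets was -0.05. How many of all probe sets had groups without overlap at 40 or 60 min was not counted. At 0, 10 and 20 min none of the 6 was called lower, where 0%, 0% and 0.472% of all probe sets were, and 2 of the 6 (IME2 and REC104) had an unadjusted p under 0.05 at 20 min, as had 713 of the 7420 probe sets in either direction. Leaving out GAL-NMD2 replicate 2, whose 20-min array stood apart, gave 1 call among them at 20 min. With the replicate number as a block IME2 (adjusted p = 0.00196) and REC104 (0.0222) were lower at 20 min, beside 5.46% of all probe sets. In replicate 2 the arrays of the 2 strains did not deviate together at that time (r = 0.068).

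Centring each array on its median moved the median of all probe sets at 60 min from -0.05 to 0.21 on the log2 scale. The centred strain differences were -0.83 for IME2, -0.82 for REC104 and -0.47 for REC102. For IME1 the value was -0.02, for NDT80 0.10 and for SPO11 0.41. Relative to the median of all probe sets, which centring by its construction cannot change, IME2 was at -1.04, REC104 at -1.03, REC102 at -0.68, IME1 at -0.23, NDT80 at -0.11 and SPO11 at 0.19. The IME2 and REC104 strain differences at 60 min were called under each scaling tried (as deposited, centred and quantile). With 1 unit added in place of 16, the log2 differences at 60 min were -1.39 for IME2, -1.65 for REC104 and -1.35 for REC102. Since the arrays measure bulk RNA, fewer cells with a transcript and less transcript per cell cannot be told apart.

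Whether the 2 strains changed differently from their own 0-min level was tested as an interaction of strain and time, which uses the same 60-min arrays as the strain comparison. At 60 min this interaction was called for IME2 (log2 -0.89 ± 0.26 SE, adjusted p = 0.0425) and REC104 (-1.05 ± 0.28, adjusted p = 0.0225), which is 2 of 6 where 3.91% of all probe sets were called lower. For REC102 it was -0.55 ± 0.27 (adjusted p = 0.446). In all 4 same-numbered pairs the 3 genes changed downward more in GAL-NMD2 than in nmd2D. At 20 min none of the 6 was called, by adjusted or unadjusted p, beside 0.0135% of probe sets. At 40 min none of the 6 was called, where 1.5% of probe sets were called lower, and 3 had an unadjusted p under 0.05, as had 645 of the 7420 probe sets in either direction. The values at 40 min were -0.65 for IME2 (adjusted p = 0.325), -1.02 for REC104 (adjusted p = 0.0525) and -0.55 for REC102 (adjusted p = 0.559).

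Same-numbered arrays deviated together in every pair of the comparisons at 0, 10, 40 and 60 min. With the replicate number as a block the interaction was called for all 3 genes. The blocked adjusted p at 60 min was 0.000713 for IME2, 0.000844 for REC104 and 0.0179 for REC102, with 9.7% of probe sets called lower. At 40 min it was 0.0206, 0.00193 and 0.0275, with 6.64% called lower. Without the block the calls at 60 min were near the threshold. The IME2 call was lost on leaving out any replicate of either strain, at all its times, but GAL-NMD2 replicate 4. The adjusted p was up to 0.183, without GAL-NMD2 replicate 3. The REC104 call was lost without replicate 2 or 3 of either strain (adjusted p 0.0603 and 0.0908 for GAL-NMD2, 0.0734 and 0.0969 for nmd2D) and without GAL-NMD2 replicate 4 (0.111). Both calls were also lost after centring (adjusted p = 0.156 for IME2 and 0.168 for REC104) and after quantile normalization (0.146 and 0.154).

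Within GAL-NMD2, 2 of the 6 genes, IME2 and REC104, fell from 0 to 60 min, beside 10.3% of all probe sets, and with the block 4 of 6 fell (NDT80 and REC102 as well), beside 18.8%. In nmd2D none of the 6 was called in either direction, beside 0.0809% of probe sets lower and 0.175% higher, and none had an unadjusted p under 0.05. Their log2 changes in nmd2D lay between -0.37 for NDT80 and 0.13 for REC104.

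The 4 genes below the filter gave signals at which a change is hard to see. HOP1, which builds the meiotic chromosome axis, lay just under the filter, at the percentile 19.1 of mean signal where the filter is at 20, and REC102 was just above it at 26.4. At 60 min HOP1 read between 5.5 and 8.1 in GAL-NMD2 and between 8.9 and 11.4 in nmd2D. The groups are separate, with GAL-NMD2 the lower, but the log2 difference was -0.19 with an adjusted p of 0.42 in a fit of all probe sets without the filter. SPO13, needed for the first division, read 4.1 to 7.8 in GAL-NMD2 and 8.3 to 11.7 in nmd2D at 60 min. These groups too are separate in the same direction, with a log2 difference of -0.26 and an adjusted p of 0.07 in the unfiltered fit. How many of all probe sets have separate groups at 60 min was not counted.

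MEI4 and REC114, which encode partners of each other in break formation, lay at or below the percentile 13.5 of mean signal in all 3 probe sets. The MEI4 _at probe set lay between 0.4 and 16.1 over the 40 arrays and the _n_at probe set between 0.1 and 6.0. At 40 min the _at set read 2.3 to 4.4 in GAL-NMD2 and 4.4 to 10.7 in nmd2D, lower in each of the 4 same-numbered pairs (log2 -0.31, adjusted p = 0.267 without the filter). At 20 min the _at set was also lower in each of the 4 pairs (log2 -0.29, adjusted p = 0.579 without the filter), where the _n_at set gave 0.11. At 60 min the strain difference of the _at set was -0.08. The _n_at set gave -0.04 at 40 and 60 min. At its signal, with 16 units added, the _n_at set cannot show whether the 2 probe sets differ. REC114 never exceeded 2.5 units on any array. No statement on a change of REC114 is possible at this signal.

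**Figure D3:**
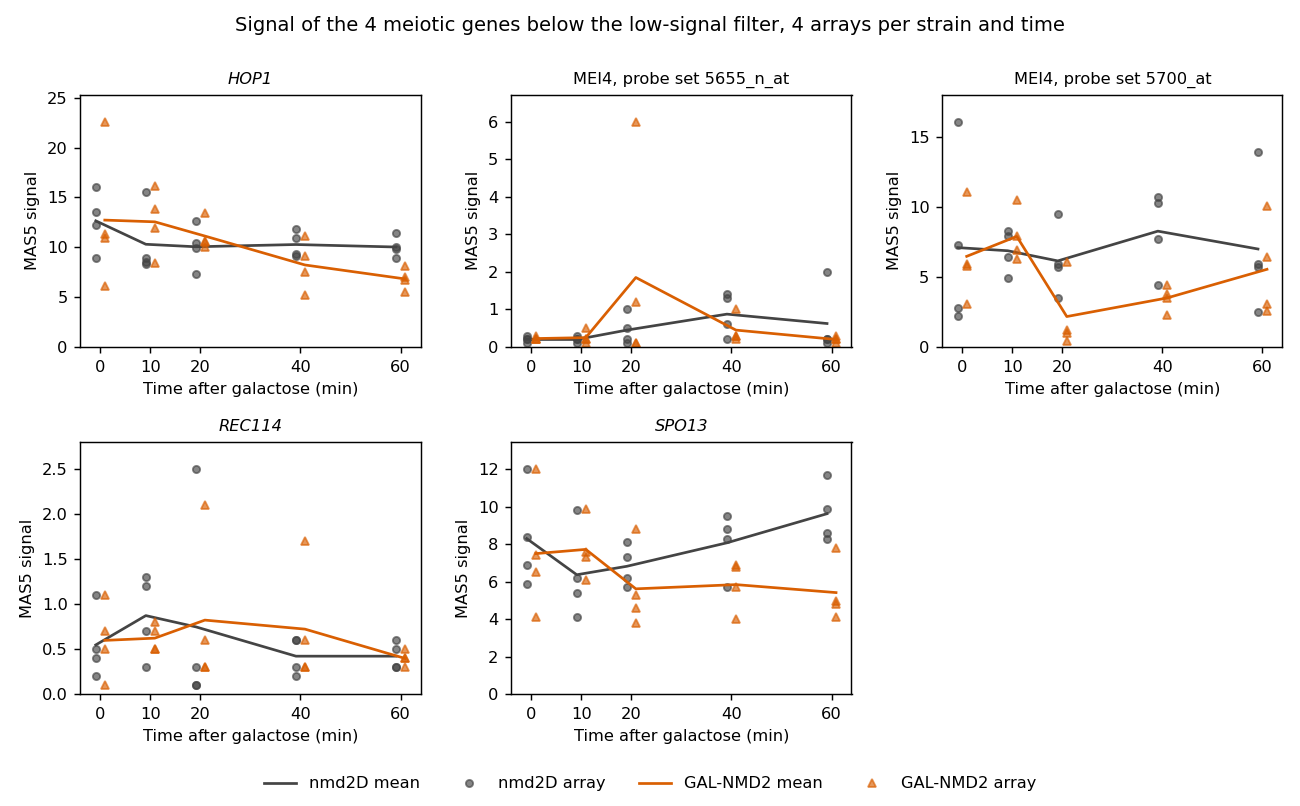
MAS5 signal (linear units) against time after galactose (min) for the 5 probe sets of the 4 genes below the low-signal filter, with 1 point per array and lines through the group means. At 60 min the strains do not overlap for HOP1 and SPO13, without a call in the unfiltered fit. The share of all probe sets without overlap was not counted. The highest single value is 22.6, in HOP1 at 0 min.

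The wider meiotic programme was read from 4 gene lists. They were chosen with earlier results of these data known, so their shares of calls are a description and not independent support. Among 28 other early meiotic genes, 27 had a probe set of their own and 17 passed the filter. Of the 17, 12 were lower in GAL-NMD2 at 60 min, beside 11.9% of all probe sets (13 beside 20.1% with the block). None was higher, and the median log2 difference was -0.91. In the interaction at 60 min 4 of the 17 were called lower beside 3.91% of all probe sets (10 beside 9.7% with the replicate block), with a median of -0.71 against -0.01 for all probe sets. The 4 were ISC10, REC107, HFM1 and SPO16. For SPO16 the interaction was -0.60 (adjusted p = 0.0172) and the strain difference at 60 min -0.78 (adjusted p = 2.27e-06).

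ISC10, needed for sporulation, had the largest change of this list. Its signal was 255 ± 83.6 at 0 min and 45.4 ± 8.91 at 60 min in GAL-NMD2, and 291 ± 77.3 and 284 ± 66.5 in nmd2D (SD, n = 4), with an interaction of -2.07 (adjusted p = 8.94e-05). REC107, also called MER2 and a partner of Rec114 and Mei4, went from 244 ± 127 to 67.8 ± 7.98 in GAL-NMD2 and was at 294 ± 55.4 and 260 ± 27.7 in nmd2D (interaction -1.35, adjusted p = 0.0408, and 0.0514 without the filter). The other REC107 probe set gave an interaction of -1.11 that was not called (adjusted p = 0.169) and a called strain difference at 60 min of -1.57 (adjusted p = 0.00014). HFM1, the crossover helicase also called MER3, went from 93.4 ± 13.1 to 37.1 ± 6.55 in GAL-NMD2 and was at 108 ± 16.6 and 116 ± 11.4 in nmd2D (interaction -1.14, adjusted p = 0.000446). For these 3 genes, named because they were called, all 4 GAL-NMD2 arrays at 60 min were below all 4 nmd2D arrays. The share of all probe sets separated in this way was not counted. As background, transcripts of REC107 and HFM1 contain introns.

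The meiotic cohesin subunit REC8 (log2 difference at 60 min -1.21, adjusted p = 0.0135), the synapsis factor CST9, also called ZIP3 (-0.94, adjusted p = 0.0332), and the crossover protein gene MSH5 (-0.95, adjusted p = 0.00784) were lower in GAL-NMD2 at 60 min. Their interactions were not called without the block, and with it those of REC8 (adjusted p = 0.00913) and CST9 (0.000537) were. MUM2 and RIM4 of the same list gave -0.16 (adjusted p = 0.806) and 0.18 (adjusted p = 0.922).

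Of 24 middle and late sporulation genes, 14 passed the filter and 6 of the 14 were lower at 60 min beside 11.9% of all probe sets (11 beside 20.1% with the block), with a median of -0.84 and none higher. In the interaction 1 was called beside 3.91% of all probe sets, SPS100, a spore wall gene, at -0.79 (adjusted p = 0.0345), and 6 were called with the block, beside 9.7%. GIP1, a targeting subunit of the Glc7 phosphatase in sporulation, had the largest strain difference of the 6 (-1.14, adjusted p = 0.000466), from a mean of 4.35 ± 2.46 in GAL-NMD2 against 29.1 ± 7.30 in nmd2D at 60 min. DON1 (-0.84), SPO20 (-0.72), DIT1 (-0.83) and SPO77 (-0.84) were the others lower. SPO77 already stood at 19.1 ± 8.76 in GAL-NMD2 against 35.4 ± 2.57 in nmd2D at 0 min, and its interaction was -0.26 (adjusted p = 1). SPS4 (-1.07, adjusted p = 0.363) and SPO21 (-1.17, adjusted p = 0.0685) did not pass without the block and did with it (adjusted p = 0.000218 and 1.96e-07).

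Of the 15 regulators of meiotic entry, all were tested and 1 was lower at 60 min, with a median of -0.03. This share was no larger than the 11.9% of all probe sets called lower. The gene was HST1, the NAD-dependent deacetylase that works with Sum1 to repress middle meiotic genes in growing cells. HST1 read 605 ± 79.6 at 0 min and 399 ± 71.5 at 60 min in GAL-NMD2, and 588 ± 85.4 and 799 ± 120 in nmd2D, with an interaction of -1.02 (adjusted p = 0.0225). UME6, the repressor of early genes, gave a strain difference of 0.04 at 60 min (adjusted p = 0.955). RME1, the haploid repressor of IME1, gave -0.09 (adjusted p = 0.921). RIM101 and MCK1, upstream activators of IME1, gave 0.13 (adjusted p = 0.895) and -0.03 (adjusted p = 0.984).

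Of 8 break repair genes that growing cells also use, 6 were tested and none was called at 60 min in either direction, with a median of -0.09. Of all probe sets 11.9% were called lower and 0.431% higher, so the lack of calls among 6 genes does not set this list apart. An unadjusted p under 0.05 was found for 1 of the 6 and for 1573 of the 7420 probe sets. With the block 1 of the 6 was lower, beside 20.1% of all probe sets. RAD52, the recombination mediator, gave 0.02 (adjusted p = 0.984), and SKI8, which also helps Spo11, gave 0.05 (adjusted p = 0.957).

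**Figure D4:**
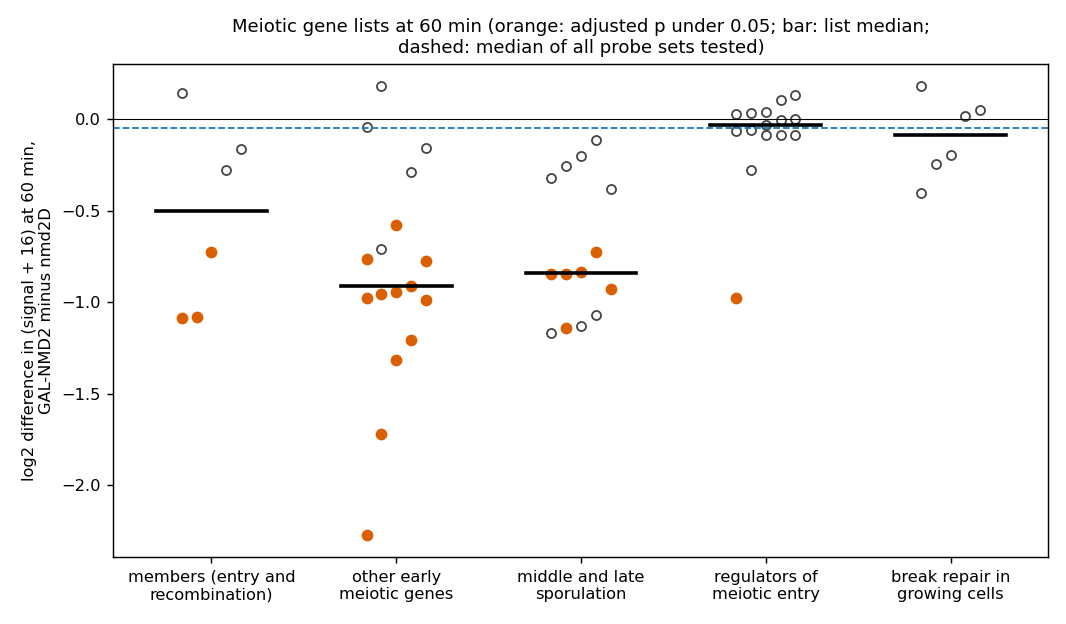
Log2 difference in (signal + 16) at 60 min, GAL-NMD2 minus nmd2D, with 1 point per tested gene of each list, orange where the limma adjusted p was under 0.05. Bars mark list medians (-0.50, -0.91, -0.84, -0.03 and -0.09 from left to right) and the dashed line marks the median of all probe sets, -0.05.

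Genes beside the 10 on the chromosome, by their order in the R64 annotation, were examined in the same fit. Of the 20 neighbours 17 were tested, and 1 was lower at 60 min, beside 11.9% of all probe sets, with a median log2 difference of -0.07. That gene was MIP6, the RNA-binding protein gene beside SPO13, at -1.08 (adjusted p = 2.66e-06, interaction -1.03 with adjusted p = 0.00315). The neighbours of IME2, REC102 and REC104 that were tested did not pass. The lowest of them was LIN1 beside REC104, at -0.64 (adjusted p = 0.262).

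The mean profile of all 10 genes, the 4 below the filter included, over the 10 group means was highest in nmd2D at 0 min, at 5.39 on the log2(signal + 16) scale, and lowest in GAL-NMD2 at 60 min, at 4.96. In GAL-NMD2 it stood at 5.29, 5.30, 5.13, 4.96 and 4.96 at the 5 times, and in nmd2D it stayed between 5.30 and 5.39. Among 5285 genes outside these lists, the 5 with the closest profile by Pearson r over the 10 group means were AUS1 (r = 0.992), YPL088W (0.992), CSS3 (0.991), YIL089W (0.990) and HEM4 (0.989). The group means share arrays and scaling, so r is given as a description. Of the 5, YPL088W and CSS3 were called in the interaction at 60 min (-1.54 and -1.18 on the log2 scale).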

How the data were processed

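Labelled cRNA was made from total RNA, per the labels' protocols. MAS5 produced the authors' deposited signal intensities, per the submitters' processing notes, which name no version or settings. The mean of the middle 96% of probe sets was 250.15 to 250.22 on every array, so each value is relative to its array. Detection calls were not used. Precision is set by the number of replicates in each group. The main fit takes all arrays as independent, although same-numbered arrays deviated together.

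Probe sets were named from the platform annotation. Of 9275 that are not controls, 6504 have 1 symbol, 328 several and 2443 none, and all 6504 matched a gene of the R64 annotation. A gene counts by its brightest probe set. The log2(intensity + 16) values of the deposited signals were fitted with limma 3.58.1 (R 4.3.3, lmFit and eBayes with trend) with 10 group means, over the 7420 probe sets above the 20th percentile of mean log2 signal. Called means a Benjamini-Hochberg adjusted p under 0.05 over all of them. The code was tested on simulated data.

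All 10 members are named. From each list, up to 6 called genes by size of the interaction at 60 min and up to 2 bright uncalled genes are named, plus UME6, RME1 and SPO16. Members and lists were chosen with earlier results of these data known.

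Same-numbered arrays deviated together in 66 of 68 pairs checked (r over 0.1, median 0.625, range -0.08 to 0.79). The exceptions both involve replicate 2 of GAL-NMD2 at 20 min. The block is given beside some results of the other times, and its calls at 20 min have this limit. Alternatives were the pseudocount (1 or 64), the filter, centring, quantile normalization, the replicate block and only the arrays compared. In addition, each of the 8 replicates (4 per strain) was left out with all its times. The labels do not say that these times come from the same culture.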

Additional observations from a re-analysis of the deposited data

Results flagged for a closer look

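In 11 of 110 groups of 4 arrays, 1 array lay far from the other 3 by Dixon's criterion, where chance gives about 5% of groups. Most of these were dim. In GAL-NMD2 at 40 min the lowest IME2 array read 30.9 (the others 38.6 to 39.4), and the lowest REC102 array read 3.1 (the others 9.9 to 10.8). In nmd2D at 0 min the highest REC102 array read 39.6 (the others 21.6 to 23.2). In nmd2D at 10 min the lowest SPO11 array read 22.4 (the others 42.0 to 44.4), and the highest HOP1 array read 15.5 (the others 8.3 to 8.9).

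At 20 min the highest REC114 array read 2.1 in GAL-NMD2 (the others 0.3 to 0.6) and 2.5 in nmd2D (the others 0.1 to 0.3). For MEI4, the highest array of the _at probe set at 20 min in GAL-NMD2 read 6.1 (the others 0.4 to 1.2). The highest array of the _n_at probe set read 0.3 in GAL-NMD2 at 0 min (the others 0.2), 1.0 in GAL-NMD2 at 40 min (the others 0.2 to 0.3) and 2.0 in nmd2D at 60 min (the others 0.1 to 0.2).

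The changes of IME2 and REC104 from 0 to 60 min differed between the strains by -0.89 and -1.05 on the log2 scale in the interaction test.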

How the results depend on the processing

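Over 30 counts and 16 alternatives each, 411 values stayed within 1.5 times the reported count and 69 did not. The 411 include counts that were 0 and stayed 0, such as the members called between strains at 0 and 10 min. This tally therefore does not measure how well the calls hold. The strain differences of IME2 and REC104 at 60 min were called under every alternative in which they were tested, and that of REC102 under 13 of 15. With the replicate block the probe sets called were 11, 9, 512, 1419 and 1645 between strains at 0, 10, 20, 40 and 60 min (1, 1, 37, 635 and 917 without it), 518 and 726 in the interaction at 40 and 60 min (111 and 291), 147 in nmd2D (19) and 1754 in GAL-NMD2 (854). The members called lower with it were 2 between strains at 20 min (IME2, adjusted p = 0.00196, and REC104, 0.0222, beside 5.46% of probe sets), 3 in the interaction at 40 min and 4 within GAL-NMD2. The block changed no other member count by over 1.5 times. Centring gave 22 between strains at 20 min and 0, 68 and 126 in the interaction at 20, 40 and 60 min, where the members called fell from 2 to 0. Quantile normalization gave 23 and 600 between strains at 20 and 60 min, 168 in the interaction at 60 min, and 0 members there. With only the arrays compared, 0 were called between strains at 20 min, 0 and 56 in the interaction at 20 and 40 min, 10 in nmd2D and 523 in GAL-NMD2, and 1 member in the interaction at 60 min. A filter at the 40th percentile left 2 members tested and 1 lower between strains at 40 and at 60 min, in the interaction at 60 min and within GAL-NMD2. In the interaction at 60 min 1 member was called with no filter and 1 with 64 added, and at 40 min 1 with 1 added.

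Leaving out each replicate of a strain in turn gave 1 to 16 probe sets between strains at 0 and at 10 min. At 20 min it gave 16 to 112 (members 0 to 1, the highest without GAL-NMD2 replicate 2). In the interaction at 20 min it gave 0 to 1. At 40 min the interaction gave 55 to 109 probe sets and at 60 min 160 to 242, with 0 to 1 members each. Within nmd2D it gave 11 to 23. Signs turned, without a call, for the IME1 interaction at 60 min (-0.040 to 0.29 with a replicate left out, the lowest without GAL-NMD2 replicate 3). They also turned for the NDT80 interaction at 60 min (0.052 centred, 0.0069 quantile). The NDT80 strain difference at 60 min turned too (0.10 centred, 0.0051 quantile, and -0.27 to 0.020 with a replicate left out). Of the values with a replicate left out, the highest was without GAL-NMD2 replicate 1. The cause was not tested. The planned search of promoters for a repressor motif was not run. Signals under 16 units limit REC114, MEI4, SPO13 and HOP1.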
